A study of Mus musculus with 12 samples.

Results

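Oxidative phosphorylation was followed through the genes of its protein subunits in the colonic epithelium of mice with and without an intestinal deletion of Ehf. Members were chosen by symbol alone: names beginning with Nduf and a letter of A, B, C, S or V before a digit, the 4 Sdh genes, Uqcr, Cox4 to Cox8, Atp5, and the mitochondrial mt-Nd, mt-Co, mt-Cytb and mt-Atp genes. The rule found 101 of 55304 gene symbols, of which 88 are coded in the nucleus and 13 in mitochondrial DNA. It left out 8 names of the -ps kind, among them Ndufb1-ps, which had 2155 counts over all libraries.

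Cells make most of their ATP on the inner mitochondrial membrane. Complexes I and II pass electrons from NADH and succinate to ubiquinone, complex III passes them on to cytochrome c, complex IV hands them to oxygen, and complex V, the ATP synthase, uses the proton gradient built by complexes I, III and IV. Complexes I, III and IV have catalytic subunits, and complex V has subunits of its membrane part, that are made inside the mitochondrion. All other subunits, including the whole of complex II, come from nuclear genes, so the 2 genomes must be expressed together. In the colon, differentiated colonocytes are known to burn butyrate, a product of gut bacteria, through this pathway.

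Ehf encodes a transcription factor of the ETS family found in epithelia. All 12 mice were C57BL/6 and 6 weeks old, and the labels give 1 library of total RNA per mouse. EHF IKO held 4 tamoxifen-treated mice whose labels give an intestinal Ehf knockout, Control-TMX held 4 tamoxifen-treated wild-type mice of the Villin CreERT2 line, and Control-OIL held 4 wild-type mice given sunflower oil whose source names share the EVCER prefix of the knockouts. Villin CreERT2 is a Cre recombinase that tamoxifen switches on in intestinal epithelium, so EHF IKO differed from Control-OIL in both tamoxifen and deletion, and from Control-TMX in the deletion and in the line that the source names give, with Cre and tamoxifen in both. The epithelium was released with EDTA and pelleted after the smooth muscle was taken away, and the pellet is a mixture in which fewer cells of a type and less RNA per cell cannot be told apart.

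Libraries held 7421411 to 10344161 counted reads. Levels are given as CPM, counts per 1000000 scaled with TMM factors, or as RPKM, the same per kilobase of exon, where different genes are set side by side. Each of 15743 genes with enough counts was tested with edgeR's quasi-likelihood test, and an adjusted p under 0.05 (Benjamini-Hochberg over all of them) is a call. The 12 epithelial markers listed, such as Epcam and Vil1, were all present and summed to between 19102.5 and 31654.5 CPM in every library, against 35.3 to 138.1 CPM for 12 smooth muscle and pericyte markers. The fibroblast list of 10 genes summed to 443 to 1082 CPM in EHF IKO, 456 to 776 in Control-TMX and 339 to 448 in Control-OIL, and 2 of its genes, Col1a2 and Col3a1, rose in EHF IKO against Control-OIL. In EHF IKO library 2, 9.04% of the counts fell in the genes Gm10800 and Gm10801, against at most 0.0973% elsewhere.

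Ehf itself had 361, 367, 308 and 322 CPM in EHF IKO, 341, 336, 324 and 373 CPM in Control-TMX, and 479, 453, 393 and 383 CPM in Control-OIL. EHF IKO overlapped Control-TMX and lay below Control-OIL, without a call in either comparison (edgeR adjusted p = 0.972 and 0.159). Control-TMX lay below Control-OIL too, without a call (adjusted p = 0.263). The log2 fold change against Control-OIL was -0.33 in EHF IKO and -0.31 in Control-TMX. These counts cover the whole gene and no label says which exons were deleted, so they do not check the deletion, and EHF IKO is used as the labels give it.

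The mitochondrial transcripts come first, because 6 of the 13 were almost absent from the deposited counts. Over the 12 libraries, mt-Nd3 had 21, mt-Co3 had 4, mt-Co2 had 3, mt-Atp6 had 1, and mt-Nd4l and mt-Atp8 had 0. These genes code for 2 of the 3 mitochondrial subunits of cytochrome c oxidase, for both mitochondrial subunits of ATP synthase and for small subunits of complex I. Reads that mapped to several places or overlapped more than 1 gene were left out of the deposited counts. Of all 50-base windows in the GENCODE vM21 transcript of mt-Co2, 100% also occurred in a transcript of another gene, as did 99.9% in mt-Co3, 99.5% in mt-Atp6, 98.8% in mt-Nd4l and 97.99% in mt-Nd3.

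The partners lie side by side on the minus strand of chromosome 1, a nuclear copy of a piece of mitochondrial DNA, between 24611535 and 24616197 on GRCm38. The copy holds Gm29216 (partner of mt-Co1), Gm28661 (mt-Co2), Gm10925 (mt-Atp6), Gm28437 (mt-Co3), Gm28438 (mt-Nd3), Gm10222 (mt-Nd4l) and Gm28439 (mt-Nd4). Aligned base by base, Gm28661 differed from mt-Co2 at 0 of 681 positions, Gm10925 from mt-Atp6 at 0 of 678, Gm28437 from mt-Co3 at 0 of 783, Gm10222 from mt-Nd4l at 0 of 294 and Gm28439 from mt-Nd4 at 0 of 876. Gm28438 differed from mt-Nd3 at 1 of 345, and Gm29216 from mt-Co1 at 6 of 492. The stretches printed here are shown because they set an identical pair beside a pair that differs at a single base, which is in capitals. Both pairs are from GENCODE vM21 transcripts, each read 5′ to 3′ along its own gene.
mt-Co2 (chrMT:7023-7082, plus strand): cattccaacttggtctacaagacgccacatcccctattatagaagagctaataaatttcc
Gm28661 (chr1:24615496-24615555, minus strand): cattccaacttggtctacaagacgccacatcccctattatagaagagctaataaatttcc
mt-Co1 (chrMT:6391-6450, plus strand): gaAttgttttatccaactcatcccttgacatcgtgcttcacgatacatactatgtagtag
Gm29216 (chr1:24616128-24616187, minus strand): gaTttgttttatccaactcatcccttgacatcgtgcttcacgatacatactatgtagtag

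Gm29216 itself had 3449 counts, Gm10925 had over 100 and the other 5 copies had 1 to 24. mt-Nd4 shared 62.2% of its 50-base windows and mt-Co1 51.1%, while mt-Nd2 shared 8.19%, mt-Nd5 7.61% and mt-Nd1, mt-Nd6 and mt-Cytb none. mt-Atp8 also shared no window with an annotated transcript and still had 0 counts. It overlaps the start of mt-Atp6, and its counterpart would fall in the unannotated gap between Gm28661 and Gm10925, so a copy there was not tested. mt-Nd4l likewise overlaps mt-Nd4. The counts of these 6 transcripts are not read as levels. The sources used here give no read length, and the part of shared sequence in the missing counts was not tested on reads.

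**Figure D1:**
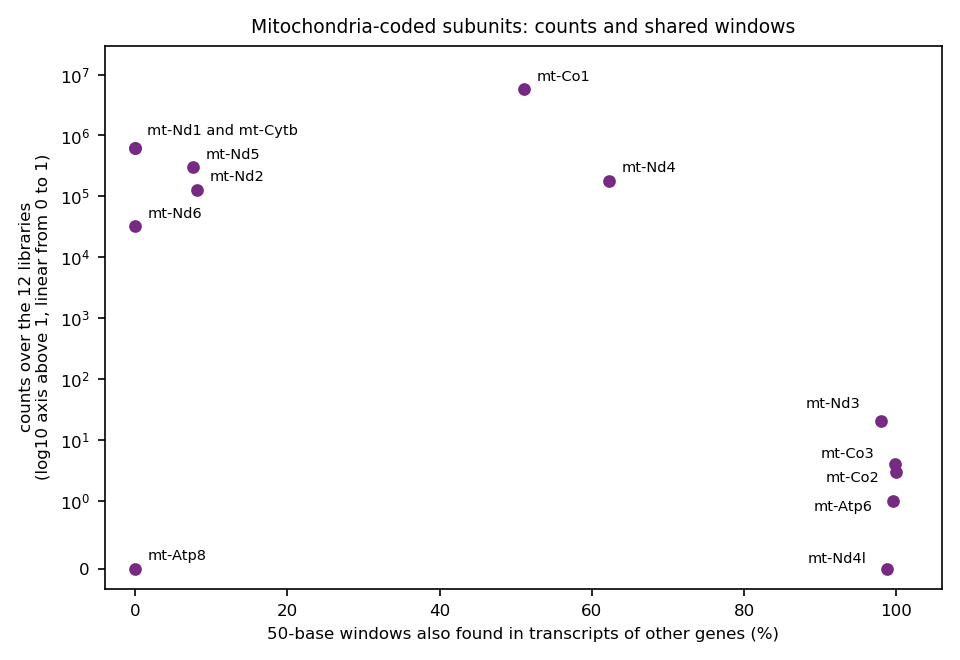
Each point is 1 of the 13 mitochondria-coded subunits: the horizontal axis gives the percentage of its 50-base windows that also occur in transcripts of other genes, and the vertical axis its counts summed over the 12 libraries (log10 above 1, linear from 0 to 1). Genes with 97.99% or more of their windows shared had at most 21 counts, mt-Atp8 had 0 counts with no window shared, and the other 7 had 32595 or more.

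The 7 measured mitochondrial mRNAs made up 6.96%, 7.59%, 9.08% and 8.94% of all counts in the 4 EHF IKO libraries, 7.36%, 5.25%, 6.68% and 7.79% in Control-TMX, and 10.6%, 8.83%, 7.68% and 4.99% in Control-OIL. The widest range was inside Control-OIL, whose libraries 1 and 4 were the highest and the lowest of all 12, and every pair of groups overlapped. Group means were 8.14% ± 1.04 in EHF IKO, 6.77% ± 1.11 in Control-TMX and 8.01% ± 2.34 in Control-OIL (SD, n = 4 each). The 88 nuclear genes together took far less of each library, 0.740% ± 0.0518 in EHF IKO, 0.760% ± 0.0932 in Control-TMX and 0.762% ± 0.0410 in Control-OIL. Library totals also held mitochondrial rRNA, 5.71% to 18.8% of counts, and the gene Gm26917, 3.58% to 11.2%. Of the counts outside mitochondrial genes, the nuclear subunits took 0.895% ± 0.0945 in EHF IKO, 0.925% ± 0.0834 in Control-TMX and 0.939% ± 0.0620 in Control-OIL, and the groups overlapped. The ratio of mitochondrial to nuclear subunit counts was 9.28 to 12.7 in EHF IKO, 6.87 to 11.68 in Control-TMX and 6.58 to 14.8 in Control-OIL, with overlap in each comparison.

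**Figure D2:**
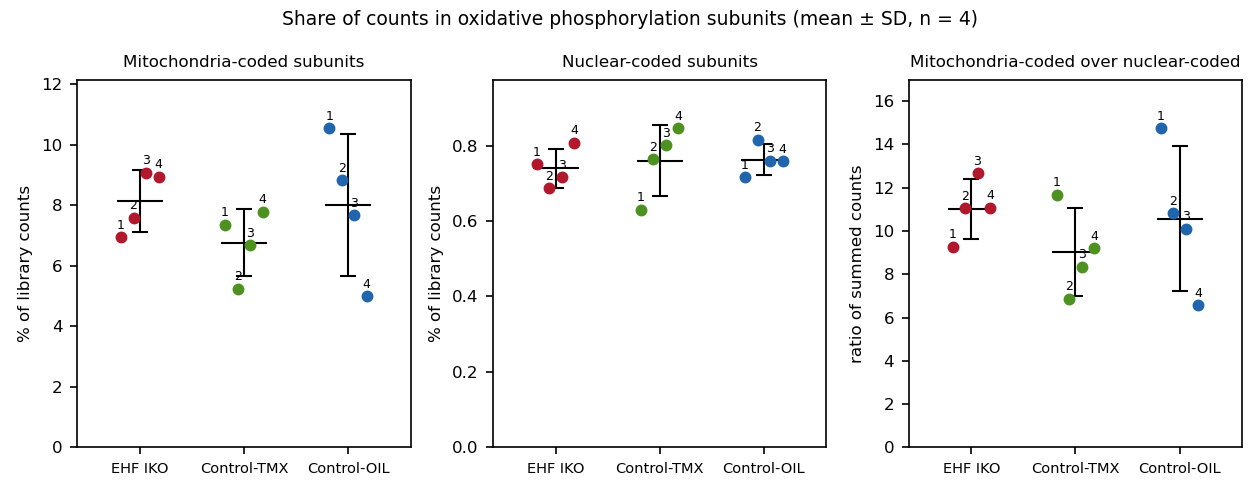
Points are libraries, numbered by replicate, with the mean ± SD of the 4 libraries in each of EHF IKO, Control-TMX and Control-OIL; the panels show the percentage of library counts in mitochondria-coded subunits, the percentage in nuclear-coded subunits and the ratio of the first to the second. The groups overlap in all panels, and Control-OIL spans the whole range of the ratio, 6.58 to 14.8.

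Among the 7 measured mitochondrial mRNAs, a single transcript dominated the counts. mt-Co1, the catalytic subunit of cytochrome c oxidase, held 75.1% of the mitochondrial mRNA counts on average. The 6 transcripts that were almost absent from the counts add next to nothing to that sum, so its share among all 13 is not known. It had 48739, 57754, 72117 and 73500 CPM in EHF IKO, 62784, 36298, 46048 and 56955 CPM in Control-TMX, and 94923, 67180, 60971 and 29994 CPM in Control-OIL. Control-OIL spanned the values of both other groups. Per kilobase it reached a mean of 38148 RPKM, against 6762 for mt-Nd1 and 5616 for mt-Cytb, the cytochrome b of complex III, with 51.1% of the 50-base windows of mt-Co1 shared. mt-Nd5 followed with 1686 RPKM, mt-Nd4 with 1351, mt-Nd2 with 1275 and mt-Nd6 with 652. mt-Nd6 is the one subunit here coded on the other strand, and since strand was ignored in counting, its reads and any antisense RNA cannot be told apart.

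The mitochondrial mRNAs moved together from mouse to mouse. The coefficient of variation of their CPM over the 12 libraries was 28.9% to 37.7%, while mt-Co1's share of their sum varied by 1.90% (72.0% to 77.2%), mt-Nd1's by 4.03% and mt-Cytb's by 6.69%. The largest variation in share was that of mt-Nd6, at 16.8%. Their spread inside groups was wide, with a median SD of 0.49 on the log2 scale. The median SD was 0.20 for the nuclear-coded subunits and 0.26 for all genes tested. It was 0.18 for tested genes with a mean log2 CPM of 4 to 7.

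None of the 7 was called in any comparison. The share of all genes called was 1.68% for EHF IKO against Control-OIL, 0.8% for EHF IKO against Control-TMX and 0.0826% for Control-TMX against Control-OIL. All 7 had a positive log2 fold change in EHF IKO against Control-TMX (median 0.14) and a negative one in Control-TMX against Control-OIL (median -0.20), 2 comparisons that share the Control-TMX libraries, and EHF IKO against Control-OIL had a median of -0.01 with 3 higher and 4 lower. These directions turned with single libraries: the 3 medians ran from -0.05 (without Control-TMX library 2) to 0.44, from -0.45 to 0.08 (without Control-OIL library 1), and from -0.22 to 0.30 (without Control-OIL libraries 4 and 1) when 1 library was left out. The largest, mt-Nd1, a core subunit of complex I, averaged 7126 ± 1556 CPM in EHF IKO and 5530 ± 1592 CPM in Control-TMX (SD, n = 4 each). Its log2 fold change was 0.37 (95% interval -0.26 to 0.99, edgeR adjusted p = 0.678). No unadjusted p was under 0.05 for any of them, and DESeq2 and limma-voom called none either. For all 7 the 95% interval lay within a 2-fold change in each comparison and for none within 1.5-fold, so a change of 1.5-fold was within what these mice leave possible.

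Among nuclear genes, 78 of 88 had enough counts to be tested. The 10 that did not were Cox4i2, Cox6a2, Cox6c2, Cox7b2, Cox8b, Cox8c, Ndufa4l2, Ndufa11b, Ndufb4c and Ndufs6b, with 0 to 22 counts in all. For Ndufb4c every 50-base window was shared with another gene, mainly Ndufb4, so its 0 counts are not read as a level. Of 87 nuclear members with a transcript in GENCODE vM21, 34 shared no window and 23 shared more than 10%.

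**Figure D3:**
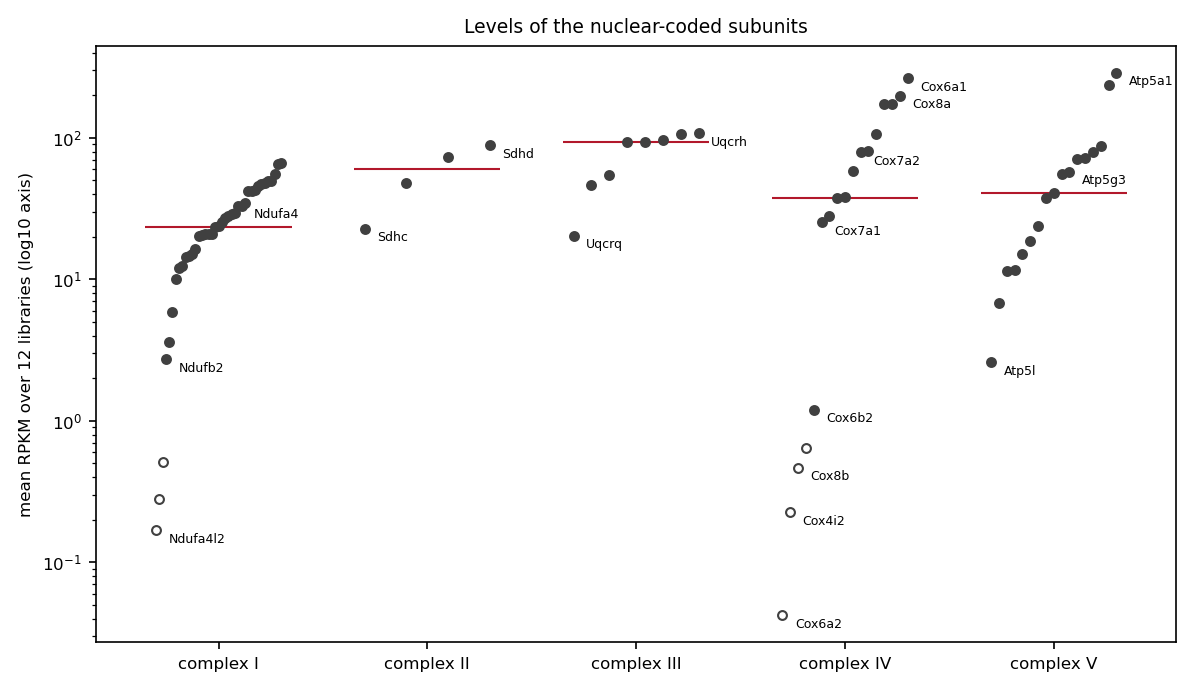
Mean RPKM over the 12 libraries (log10 axis) of each nuclear-coded subunit, by complex; filled points were tested, open points had too few counts, red lines are the medians over all nuclear members of the complex, and the 3 genes at 0 counts are not drawn. Complex III has the highest median, 93.6, and complex IV holds both very high members and minor isoforms near 0.

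Levels differed widely between subunits of one complex. The medians were 23.6 RPKM for 40 genes of complex I, 60.5 for 4 of complex II, 93.6 for 8 of complex III, 37.4 for 19 of complex IV and 40.9 for 17 of complex V. These medians include the 10 genes with too few counts to test, Ndufb4c among them, all of complex I or IV. Among complexes II to V the top member was Sdhd, a membrane anchor of complex II, with 88.7 RPKM, Uqcrh, the hinge protein of complex III, with 108, Cox6a1 of complex IV with 263, and Atp5a1, the alpha subunit of ATP synthase, with 289. The lowest members with counts in complexes II, III and V were Sdhc with 22.8, Uqcrq with 20.3 and Atp5l with 2.59. RPKM uses the exon length given in the files, 6443 bases for Atp5l.

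Several complex IV subunits exist as a ubiquitous and a muscle, lung or testis form, and in each such pair one gene carried nearly all of the level. Cox4i1 had 174.5 RPKM, against 0.225 for Cox4i2, known from lung. Cox6a1 had 263, against 0.0422 for its heart and muscle form Cox6a2. Cox6b1 had 175 and Cox6b2, the testis form, 1.2, while Cox8a had 198, Cox8b 0.466 and Cox8c 0. Cox7b had 106.3 and Cox7b2 none. Neither Cox7b2 nor Cox8c shared a 50-base window with another gene, and a count of 0 over all libraries allows a level of up to 0.0302 CPM, for counting error only. Cox7a departed from that pattern: Cox7a2 had 79.4 RPKM, the supercomplex factor Cox7a2l 38.4, and Cox7a1, the heart and muscle form, 25.4. In complex I, Ndufa4 (also known as a subunit of complex IV) had 33.1 RPKM and Ndufa4l2, which hypoxia is known to induce, 0.168. Of the 3 genes for subunit c, the rotor ring of ATP synthase, Atp5g3 had 57.7 RPKM, Atp5g1 11.6 and Atp5g2 11.5. These values rest on exon lengths of 2181, 4912 and 1675 bases. Before division by length, Atp5g1 averaged 57.9 CPM in EHF IKO, against 124 for Atp5g3. Atp5g2 shared 38.3% of its 50-base windows with other genes and Atp5g1 11.1%, while Atp5g3 shared none. The part of shared sequence in this ranking was not tested.

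No nuclear-coded subunit was called in any comparison by edgeR: 0 of 78 for EHF IKO against Control-OIL (1.68% of all genes called), 0 of 78 for EHF IKO against Control-TMX (0.8%) and 0 of 78 for Control-TMX against Control-OIL (0.0826%). At an unadjusted p under 0.05 the counts were 1, 1 and 0 of 78, against 11.9%, 11.9% and 12.9% of all genes. DESeq2 called 1 in the first comparison, against 3.4% of all genes, and none in the others (1.94% and 1.48% of all genes). limma-voom called none, against 1.41%, 0.673% and 0.0508% of all genes in the 3 comparisons. The median log2 fold change was -0.03 in EHF IKO against Control-OIL with 26 higher and 52 lower, 0.02 against Control-TMX with 44 higher and 34 lower, and -0.06 in Control-TMX against Control-OIL with 25 higher and 53 lower. Over all genes tested the medians were -0.01, 0.02 and -0.01. With plain library totals the second median of the subunits was -0.02, and leaving out 1 library took the 3 medians across 0, from -0.12 to 0.02, from -0.06 to 0.07 and from -0.15 to 0.00. For 73, 74 and 72 of the 78 the 95% interval lay within a 1.5-fold change in those comparisons, and for 77, 78 and 77 within 2-fold.

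**Figure D4:**
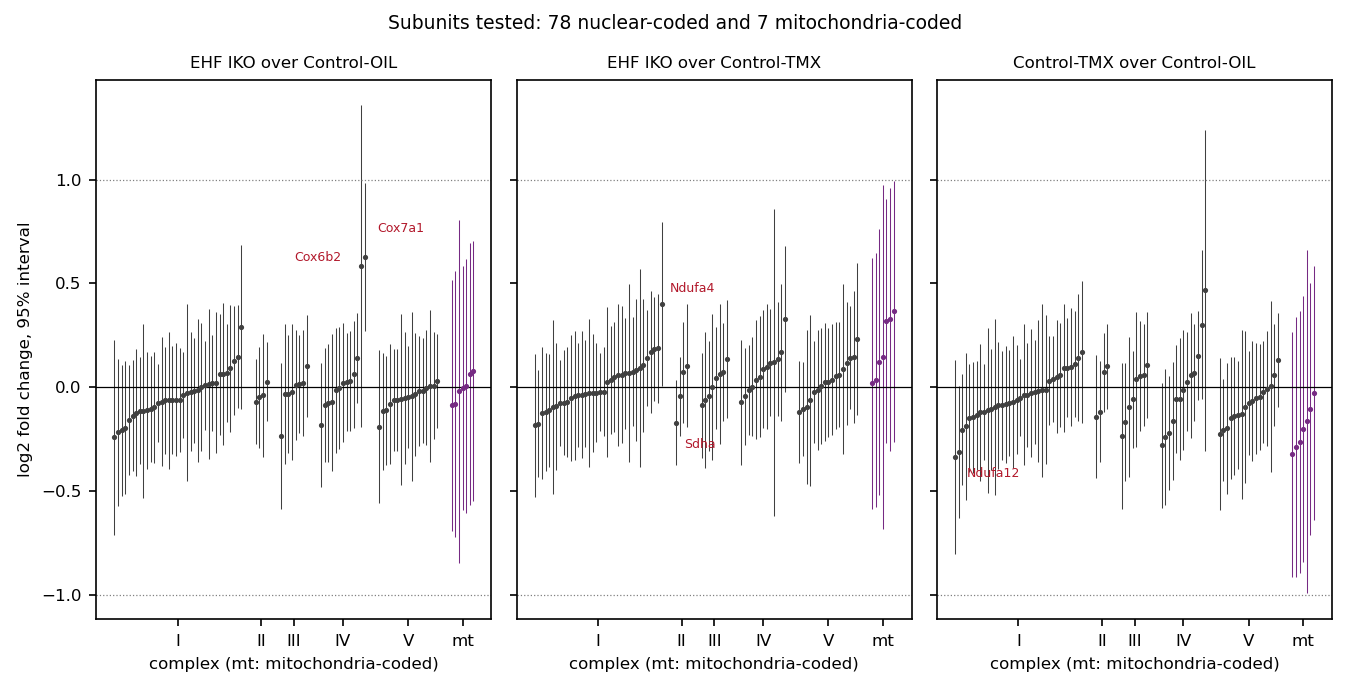
Log2 fold changes from edgeR with 95% intervals for the 78 nuclear-coded subunits, by complex and sorted within it, and the 7 measured mitochondria-coded ones (mt, purple); dotted lines mark 2-fold. Most nuclear values lie close to 0, Cox7a1 and Cox6b2 are the highest in EHF IKO over Control-OIL, and the mitochondrial intervals are the widest as a group.

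Complex I, the NADH dehydrogenase, had 36 tested nuclear genes. Their median log2 fold change was -0.06 in EHF IKO against Control-OIL, -0.03 against Control-TMX and -0.06 in Control-TMX against Control-OIL. Ndufs1, a core subunit of the electron-input arm, chosen after its values were seen, was the steadiest nuclear member inside groups, with an SD of 0.09 on the log2 scale and means of 120.0 ± 4.19 CPM in EHF IKO, 122 ± 7.66 in Control-TMX and 126.5 ± 9.83 in Control-OIL (SD, n = 4 each). Its log2 fold change was -0.08 ± 0.09 (SE) in EHF IKO against Control-OIL (edgeR adjusted p = 0.842).

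Ndufa4 was the complex I name with the smallest p against Control-TMX. It had 48.2, 52.2, 51.5 and 61.2 CPM in EHF IKO, 37.6, 28.9, 41.6 and 52.8 CPM in Control-TMX, and 53.8, 44.5, 47.5 and 29.0 CPM in Control-OIL. In EHF IKO, 3 libraries lay below the highest Control-TMX library, so the groups overlapped. The log2 fold change was 0.40 ± 0.19 (SE) against Control-TMX (unadjusted p = 0.0484, edgeR adjusted p = 0.417) and 0.29 ± 0.19 against Control-OIL (adjusted p = 0.615). Ndufa12, an accessory subunit, had the smallest p between the controls, with 20.7 ± 3.43 CPM in Control-TMX and 25.8 ± 2.98 CPM in Control-OIL (log2 fold change -0.31 ± 0.15, edgeR adjusted p = 0.391).

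Complex II oxidises succinate and links the citric acid cycle to the respiratory chain. Sdha, its flavoprotein, had 269.6, 279, 291 and 302 CPM in EHF IKO, 334, 309, 322 and 320.1 CPM in Control-TMX, and 312, 332, 298 and 256 CPM in Control-OIL. All 4 EHF IKO libraries were below all 4 Control-TMX libraries, the one member of 78 whose groups did not overlap in any comparison, against 3.87% of all genes lower and 3.32% higher without overlap in that comparison. The count was 0 of 78 in the others, where 3.29% of all genes were lower and 3.25% higher (EHF IKO against Control-OIL) and 3.2% lower and 3.68% higher (Control-TMX against Control-OIL). EHF IKO overlapped Control-OIL. The log2 fold change against Control-TMX was -0.17 ± 0.10 and did not pass (edgeR adjusted p = 0.524). The membrane anchor Sdhd had 95.5, 101, 112.8 and 134 CPM in EHF IKO, 102, 90.7, 97.98 and 121 CPM in Control-TMX, and 134, 116, 119 and 87.0 CPM in Control-OIL, and all groups overlapped. The other anchor, Sdhc, averaged 74.5 ± 6.90 CPM in EHF IKO, 70.8 ± 5.91 in Control-TMX and 77.0 ± 11.5 in Control-OIL (SD, n = 4 each).

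In complex III, 8 of 8 nuclear genes were tested, with medians of -0.01, 0.02 and -0.01 in the 3 comparisons in the order above. Uqcrh had 122.5, 136, 132.5 and 154.5 CPM in EHF IKO, 132, 125, 121 and 141 CPM in Control-TMX, and 153.8, 138.8, 137.6 and 110.2 CPM in Control-OIL. The lowest value was in Control-OIL and the highest in EHF IKO, next to a Control-OIL library. Uqcrq, a small subunit beside cytochrome b and the least abundant of the complex per kilobase, averaged 36.9 ± 5.09 CPM in EHF IKO, 38.0 ± 3.82 in Control-TMX and 36.7 ± 4.42 in Control-OIL (SD, n = 4 each).

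Complex IV held the nearest approach to a call. Cox7a1 (chr7:30184144-30186078, plus strand of GRCm38) had 13.6, 16.4, 16.4 and 20.4 CPM in EHF IKO, 11.6, 13.2, 12.3 and 15.8 CPM in Control-TMX, and 13.7, 10.6, 10.6 and 8.49 CPM in Control-OIL. In EHF IKO, 3 libraries were above every Control-OIL library, while EHF IKO library 1 stood just below Control-OIL library 1. The log2 fold change was 0.63 ± 0.17 against Control-OIL (unadjusted p = 0.00187, edgeR adjusted p = 0.0771), 0.33 ± 0.17 against Control-TMX (adjusted p = 0.461) and 0.30 ± 0.17 in Control-TMX against Control-OIL (adjusted p = 0.470). DESeq2 called the first (adjusted p = 0.0280), and so did edgeR without Control-OIL library 1, at 0.75 (adjusted p = 0.0484). Cox7a1 is best known from heart, skeletal muscle and brown fat. In the striated muscle list, 5 of 8 genes (Ckm, Actc1, Tnnt3, Myh4 and Myh6) were under 1 CPM in every library. All 3 brown fat genes (Ucp1, Cidea and Elovl3) were too. The summed striated muscle list was 3.86 to 9.25 CPM in EHF IKO, 3.73 to 7.29 in Control-TMX and 3.69 to 5.31 in Control-OIL.

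The smooth muscle and pericyte list, which was also higher in EHF IKO than in Control-OIL in 8 of 10 tested genes without a call, summed to 39.2 to 103 CPM in EHF IKO, 62.9 to 138.1 in Control-TMX and 35.3 to 63.3 in Control-OIL. In Control-TMX against Control-OIL 9 of 10 were higher, and in EHF IKO against Control-TMX 9 of 10 were lower. The endothelial list of 7 genes summed to 6.04 to 14.8 CPM in EHF IKO, 5.24 to 11.1 in Control-TMX and 4.20 to 5.92 in Control-OIL. None of the 7 was at 0, Cdh5 and Emcn were under 1 CPM in every library, and 2 were tested. Both of its tested genes were higher in EHF IKO than in Control-OIL (median log2 fold change 1.23) and in Control-TMX than in Control-OIL (1.07), and neither was called. The fibroblast list, with its sums and its 2 calls given above, was also higher in EHF IKO than in Control-OIL, in 10 of 10 genes (median 0.67). The part of these other cells in the Cox7a1 values was not tested. Neither paralog was called. Cox7a2 averaged 73.3 ± 12.1 CPM in EHF IKO, 68.3 ± 7.57 in Control-TMX and 83.2 ± 15.2 in Control-OIL, a log2 fold change of -0.18 ± 0.14 in EHF IKO against Control-OIL (edgeR adjusted p = 0.706), and Cox7a2l one of -0.00 ± 0.14 (adjusted p = 0.994). Cox6b2 was the next highest, 0.59 ± 0.37 against Control-OIL (adjusted p = 0.596), from 1.55 ± 0.789 CPM in EHF IKO and 1.04 ± 0.157 CPM in Control-OIL. The ubiquitous Cox4i1 averaged 269 ± 20.2 CPM in EHF IKO, 278 ± 10.7 in Control-TMX and 265 ± 39.4 in Control-OIL.

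Complex V had all 17 nuclear genes tested, 14 of them lower in EHF IKO than in Control-OIL with a median log2 fold change of -0.05, and 11 higher than in Control-TMX with a median of 0.02. Between the controls, 14 of the 17 were likewise lower in Control-TMX, with a median of -0.08. Over all genes tested 51.3%, 47.4% and 51.5% were lower in these 3 comparisons. Atp5a1 had 809, 838, 924 and 1070 CPM in EHF IKO, 925, 830.4, 856 and 939.8 CPM in Control-TMX, and 988, 1005, 973 and 721 CPM in Control-OIL. Control-OIL library 4 was the lowest of all 12 and EHF IKO library 4 the highest. Its group means were 910.1 ± 117 CPM in EHF IKO, 888 ± 52.9 in Control-TMX and 922 ± 134.7 in Control-OIL (SD, n = 4 each), differences smaller than the spread inside each group. Of the subunit c genes, Atp5g3 averaged 124 ± 14.6 CPM in EHF IKO, 126 ± 15.9 in Control-TMX and 128 ± 12.4 in Control-OIL.

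The nuclear genes varied together from mouse to mouse. On TMM-scaled CPM, EHF IKO library 4 had the highest value of its group for 67 of 78 genes, Control-TMX library 4 for 56 and Control-OIL library 1 for 53, while Control-OIL library 4 had the lowest of its group for 75. The median over the 78 genes, as a log2 difference from each gene's mean over the 12 libraries, was -0.14, -0.11, 0.01 and 0.22 in EHF IKO, -0.01, -0.11, -0.07 and 0.14 in Control-TMX, and 0.18, 0.09, 0.08 and -0.26 in Control-OIL. The highest was an EHF IKO library and the lowest a Control-OIL library. In Control-OIL library 4 the medians of the 5 complexes ran from -0.24 to -0.30, and in EHF IKO library 4 from 0.17 to 0.27.

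The ranking of libraries depends on what the genes are scaled to. With plain library totals, Control-OIL library 4 was the lowest of its group for 17 genes instead of 75, and Control-OIL library 1 the highest for 8 instead of 53. EHF IKO library 4 was the highest of its group for 56 genes instead of 67, and Control-TMX library 4 for 56 with either scaling. With totals that leave out mitochondrial genes, Control-OIL library 4 was the lowest for 51 and Control-OIL library 1 the highest for 38, EHF IKO library 4 the highest for 66 and Control-TMX library 4 for 62. Scaling shifts all genes of a library alike, and the distance of the subunits from the median of all genes tested was -0.28 in Control-OIL library 4 with TMM scaling and -0.26 with plain totals, and 0.22 and 0.21 in EHF IKO library 4. The median of the proliferation and stem cell list was also highest in EHF IKO library 4, 0.48 above its mean on the log2 scale, where the differentiated colonocyte list was at -0.39. In Control-OIL library 4 these medians were 0.08 and -0.14. The part of cell composition in these differences was not tested.

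**Figure D5:**
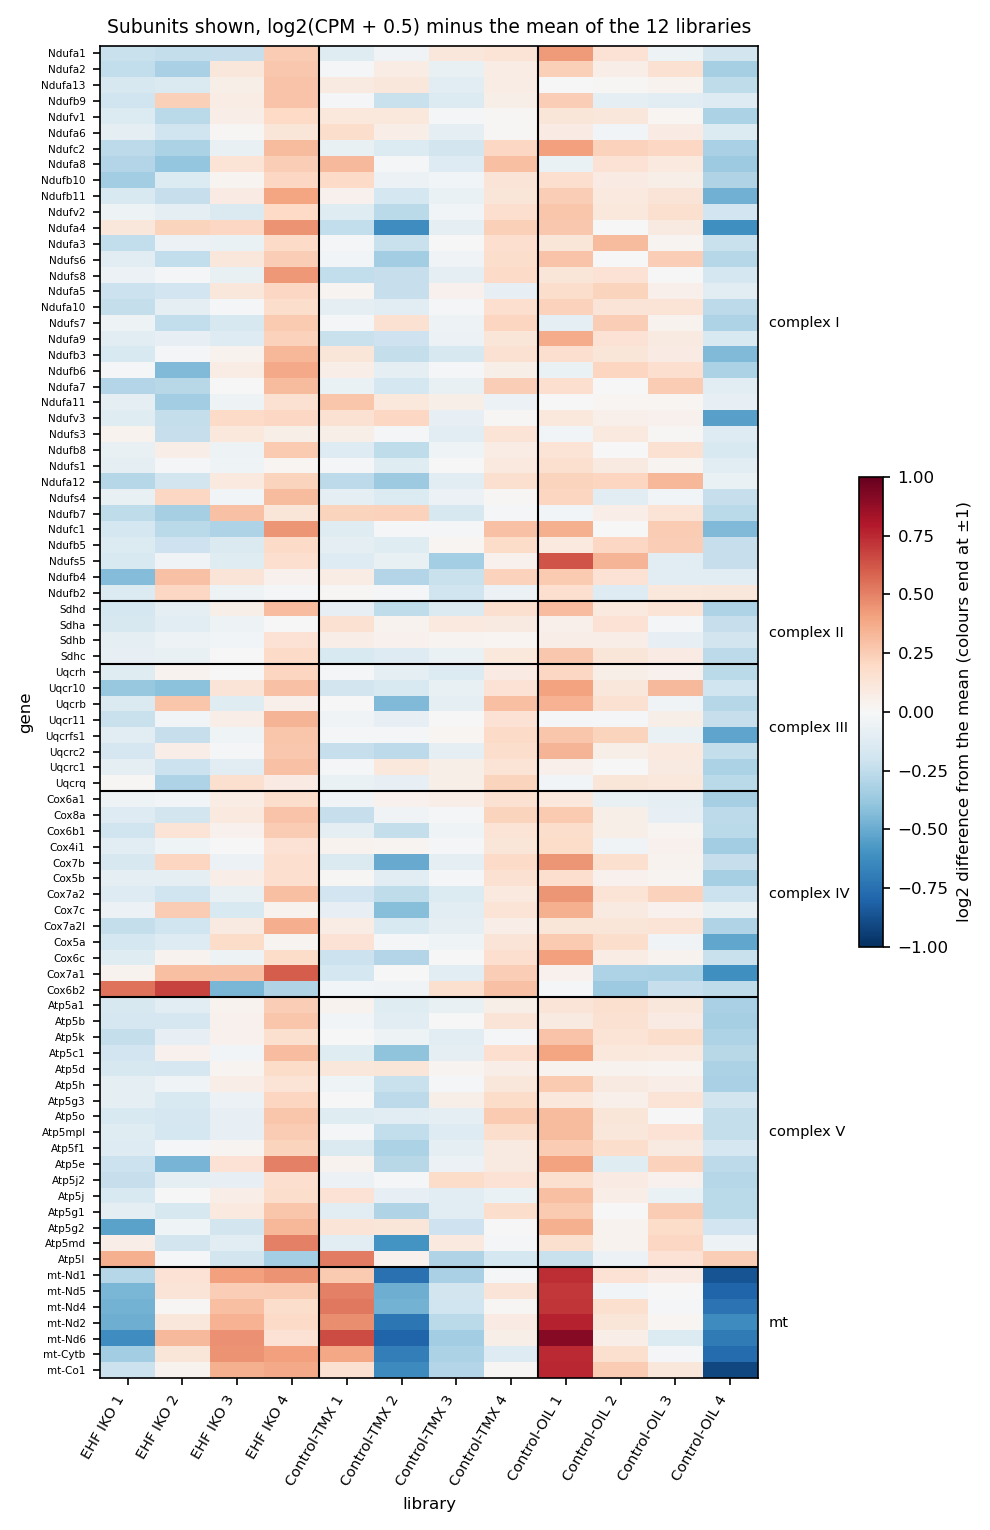
Rows are 77 nuclear-coded and 7 mitochondria-coded subunits, grouped by complex and sorted by RPKM, and columns the 12 libraries; colour gives log2(CPM + 0.5) minus the gene's mean over all libraries. Columns tend to share a colour. EHF IKO 4, Control-TMX 4 and Control-OIL 1 to 3 are mostly red, and EHF IKO 1 and 2, Control-TMX 2 and 3 and Control-OIL 4 mostly blue. No block of 4 columns shares a colour.

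Promoters of the subunit genes were searched for the motifs of factors known to control them. RefSeq windows on GRCm38.p6, each 250 bases before to 50 after a gene's start, were found for 68 of 88 nuclear members (73 windows). Both strands were searched for the NRF1 motif (its matches are printed in capitals further on), CCGGAAG for ETS factors (the family of GABPA, and also of Ehf), the YY1 motif and TATAAA for the TATA box. The NRF1 letters were in 24.7% of the members' windows and in 4.603% of all 32851 windows. The ETS letters were in 23.3% and 8.86%, the YY1 letters in 6.85% and 0.852%, and the TATA letters in 12.3% and 13.6%. These comparisons with all windows were not matched for base composition. Together, 34 of 73 windows held NRF1, ETS or YY1 letters, against 13.1% of all windows, and in no member's window did 2 different motifs overlap.

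Both NRF1 and ETS letters were in windows of 4 members, Cox6a1, Sdhd, Atp5h and Atp5k, with both of them before the start in the first 3. They are printed with 10 bases on each side because they show what the shared letters look like, with the match in capitals. All are from the minus strand, 5′ to 3′. On this strand the ETS matches read CTTCCGG, the reverse complement of CCGGAAG.
Cox6a1 NRF1 (chr5:115349101-115349130): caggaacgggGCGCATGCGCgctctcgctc
Cox6a1 NRF1 (chr5:115349056-115349085): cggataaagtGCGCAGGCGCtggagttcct
Cox6a1 ETS (chr5:115348958-115348984): cccatttccgCTTCCGGcgcgccggtg
Sdhd NRF1 (chr9:50603909-50603938): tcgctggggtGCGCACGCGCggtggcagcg
Sdhd ETS (chr9:50603879-50603905): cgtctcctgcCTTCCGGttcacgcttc
Atp5h NRF1 (chr11:115420041-115420070): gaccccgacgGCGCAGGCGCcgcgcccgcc
Atp5h ETS (chr11:115419941-115419967): aaggagagaaCTTCCGGcaactctctt
None of the 3 was called in EHF IKO: their log2 fold changes against Control-OIL were 0.14 ± 0.10 for Cox6a1, -0.04 ± 0.14 for Sdhd and -0.02 ± 0.12 for Atp5h, with edgeR adjusted p of 0.679, 0.961 and 0.982. A match of letters does not show that a factor binds.

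The genes that build, feed and regulate the complexes were taken from lists written from general knowledge with earlier results of these data known. None of 17 tested complex I assembly factors, 19 complex IV assembly factors, 4 complex V assembly factors or 15 electron carriers and further subunits was called in any comparison. The same held for 17 genes of the citric acid cycle, 15 of mitochondrial DNA maintenance, 25 of mitochondrial RNA processing and translation, 7 carriers and porins and 19 of protein import. Medians of these lists lay between -0.15 and 0.10. In the mitochondrial RNA and translation list 22 of 25 were lower in EHF IKO than in Control-OIL, with a median of -0.11, against 51.3% lower and a median of -0.01 over all genes. Between the controls, 19 of the 25 were lower in Control-TMX, with a median of -0.14, against 51.5% and -0.01 over all genes. In EHF IKO against Control-TMX 15 of the 25 were higher, with a median of 0.02. Named by smallest p, Ogdh, of the oxoglutarate dehydrogenase complex, averaged 323 ± 5.86 CPM in EHF IKO, 387 ± 11.4 in Control-TMX and 315.5 ± 27.1 in Control-OIL (SD, n = 4 each), with a log2 fold change of -0.26 in EHF IKO against Control-TMX (edgeR adjusted p = 0.246). Ucp2, an inner membrane carrier of the uncoupling protein family, averaged 189.9 ± 10.27 CPM in EHF IKO, 264 ± 60.1 in Control-TMX and 189 ± 14.4 in Control-OIL, with -0.47 in EHF IKO against Control-TMX (adjusted p = 0.151). Hspd1, the mitochondrial chaperonin, had the opposite order of means, 135.5 ± 17.6 CPM in EHF IKO, 103 ± 24.7 in Control-TMX and 152 ± 18.6 in Control-OIL, with 0.39 in EHF IKO against Control-TMX (adjusted p = 0.315). Tmem186, a complex I assembly factor, averaged 18.6 ± 2.34 CPM in EHF IKO, 23.4 ± 1.38 in Control-TMX and 24.5 ± 3.20 in Control-OIL, with -0.40 in EHF IKO against Control-OIL (adjusted p = 0.154). The 2 calls were Lyrm7 and Ppargc1a, both with no overlap between Control-TMX and the other groups. Of all genes, 0.33% rose and 0.47% fell in EHF IKO against Control-TMX, and 0.0381% rose and 0.0445% fell in Control-TMX against Control-OIL.

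Lyrm7, a chaperone that helps to insert the Rieske protein into complex III, had 9.78, 9.66, 8.12 and 8.19 CPM in EHF IKO, 4.04, 2.84, 2.01 and 3.55 CPM in Control-TMX, and 7.83, 8.41, 7.90 and 8.49 CPM in Control-OIL. Every Control-TMX library was below every library of the other groups. It rose in EHF IKO against Control-TMX, by 1.53 ± 0.20 on the log2 scale (edgeR adjusted p = 0.00176), fell in Control-TMX against Control-OIL, with -1.40 ± 0.20 (adjusted p = 0.0123), and had 0.13 ± 0.18 in EHF IKO against Control-OIL (adjusted p = 0.877). Without Control-TMX library 2 the difference between the controls was -1.37 with an adjusted p of 0.0706. The other 9 tested assembly factors of complexes II and III were not called, and Uqcrfs1, the Rieske gene, chosen after its values were seen, had a log2 fold change of -0.06 ± 0.15 in EHF IKO against Control-TMX (adjusted p = 0.922).

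Ppargc1a encodes PGC-1alpha, a coactivator known to raise expression of respiratory chain genes. It had 31.7, 33.0, 28.3 and 29.96 CPM in EHF IKO, 87.0, 77.99, 60.5 and 46.7 CPM in Control-TMX, and 32.4, 37.6, 37.8 and 35.5 CPM in Control-OIL. Every Control-TMX library was above every library of the other groups. Ppargc1a fell in EHF IKO against Control-TMX, with -1.14 ± 0.16 on the log2 scale (edgeR adjusted p = 0.00202), rose in Control-TMX against Control-OIL by 0.92 ± 0.15 (adjusted p = 0.0413), and had -0.22 ± 0.16 in EHF IKO against Control-OIL (adjusted p = 0.660). The call between the controls was lost in 14 of the alternative fits, including those without each of Control-TMX libraries 1, 2 and 3, with adjusted p of up to 0.151, while the log2 fold change in those 14 fits was 0.78 to 0.97. In the same comparisons the nuclear-coded subunits had medians of 0.02 and -0.06 with 0 calls.

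Markers of crypt and surface cells also leaned mostly to a single side in some comparisons, while the library medians of both lists overlapped between groups. For the proliferation list they ran from -0.14 to 0.48 in EHF IKO, -0.73 to 0.29 in Control-TMX and 0.08 to 0.38 in Control-OIL. Control-TMX was the group in which Lyrm7, Ppargc1a, Ogdh, Ucp2 and Hspd1, all named by smallest p, had their highest or lowest means. Tmem186, named in the same way, had its lowest mean in EHF IKO and its highest in Control-OIL. Of the tested crypt stem cell and proliferation markers, 14 of 14 were lower in Control-TMX than in Control-OIL (median log2 fold change -0.40). In EHF IKO 12 of 14 were higher than in Control-TMX (0.34), and 9 of 14 were lower than in Control-OIL (-0.18). None was called in any comparison. The list summed to 1126 to 1771 CPM in EHF IKO, 755 to 1502 in Control-TMX and 1227 to 1444 in Control-OIL. Olfm4 was under 1 CPM in every library. Of the differentiated colonocyte markers, 16 of 18 were higher in Control-TMX than in Control-OIL (median 0.41), with no call. In EHF IKO against Control-OIL 16 of 18 were likewise higher (median 0.38). There 1 was called higher and 1 lower, against 0.921% and 0.762% of all genes. In EHF IKO against Control-TMX 7 of 18 were higher (median -0.09). Their sums were 8289 to 13631 CPM in EHF IKO, 11103 to 11957 in Control-TMX and 6627 to 10255 in Control-OIL.

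Inside Control-TMX, the median of the proliferation list, as a log2 difference from each gene's mean over the 12 libraries, was -0.73, -0.62, -0.14 and 0.29 in libraries 1 to 4. Ppargc1a was highest in library 1 and lowest in library 4, as was Ucp2, with 325, 296, 245 and 188 CPM. Hspd1 had 82.6, 88.6, 103 and 137.7 CPM in the same libraries, lowest in library 1 and highest in library 4. Lyrm7 was lowest in library 3 and highest in library 1. The part of cell composition in these values was not tested.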

How the data were processed

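RNA-seq of colonic epithelium from 12 mice was read from the deposited gene tables, which hold raw counts of whole reads, per the file headers. The headers give a featureCounts command over exons of Ensembl GRCm38 release 98, summed by gene name, with strand setting 0 and no option to count multi-mapped or multi-gene reads, which are then left out. The submitters' processing notes list STAR, featureCounts and Subread 1.6.1. The members and lists were chosen with earlier results of these data known. Groups came from the labels, with 4 libraries each.

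Counts were scaled with TMM and fitted in edgeR 4.0.16 (R 4.3.3) with all 3 groups in 1 quasi-likelihood model, after a filter on low counts that left 15743 genes, and p-values were adjusted by Benjamini-Hochberg over all of them. CPM and RPKM were computed here. Named genes were every mitochondrial subunit, called subunits, the 3 nuclear subunits with the smallest p in each comparison, the highest and lowest RPKM in each complex, the isoform sets and up to 3 genes with the smallest p in each other list. Genes outside this rule are marked in the text. The values of 1 gene that the rule names are not reported here. Alternatives were plain totals, other filters, DESeq2 1.42.0, limma-voom (limma 3.58.1), 2 groups alone, a replicate block and leaving out each library. Shared 50-base windows and motifs were counted with Python 3.11.15. Libraries held 7421411 to 10344161 counts.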

Additional observations from a re-analysis of the deposited data

Results flagged for a closer look

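In 201 groups of 4 libraries examined for a library standing apart by Dixon's 95% critical value, 8 were found, and chance alone gives about 1 in 20. Control-OIL library 4 was low for Atp5a1, with 720.8 CPM against 973 to 1005 in the other 3, for Cox7a2l, with 45.5 against 61.3 to 62.0, and for the citrate synthase gene Cs, with 317 against 380.3 to 391. EHF IKO library 4 was high for the mitochondrial RNA genes Ptcd2, with 21.2 CPM against 17.9 to 18.4, and Trmt10c, with 13.7 against 9.66 to 10.25. EHF IKO library 1 was high for Ucp2, with 205 CPM against 184 to 186, and Control-TMX library 2 for Dmac2, with 42.5 against 32.2 to 33.9. In Control-TMX library 1 the ratio of mitochondrial rRNA to mRNA counts was 2.56, against 1.21 to 1.35 in the other Control-TMX libraries.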

How the results depend on the processing

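No subunit of either genome was called under plain totals, other filters, limma-voom, 2 groups alone or the replicate block, and no mitochondrial one under any alternative. Nuclear calls in EHF IKO against Control-OIL were 1 (Cox7a1) with DESeq2 and 0 to 1 when 1 library was left out, with adjusted p of Cox7a1 from 0.0280 to 0.206. In other lists, DESeq2 called 1 citric acid cycle gene (Ogdh) in both comparisons with Control-TMX and 2 regulators between the controls (Ppara and Ppargc1a). Without the filter there were 1 regulator (Pprc1) in EHF IKO against Control-OIL, 3 (Ppara, Ppard and Ppargc1a) in each comparison with Control-TMX, 1 carrier (Ucp2) in each of these, and 1 import gene (Hspd1) between the controls. Regulators between the controls fell to 0 with plain totals, a mean log2 CPM of at least 1, limma-voom, 2 groups alone and the replicate block. Leaving out 1 library gave 0 to 1 for these regulators, for complex II and III factors between the controls, for mitochondrial RNA genes in EHF IKO against Control-OIL, for carriers in both comparisons with Control-TMX and for import genes between the controls, and 0 to 2 for regulators in EHF IKO against Control-OIL. The cause was not tested. With plain totals, chosen after seeing the data, Control-OIL library 1 was highest of its group for 8 subunits and library 4 lowest for 17.

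The labels tie no replicate number to a shared litter, batch or day, so the numbers were not used to pair mice. Correlations between same-numbered libraries were 0.22, 0.11, 0.0999 and 0.40 for EHF IKO and Control-TMX, -0.41 to 0.18 for EHF IKO and Control-OIL, and -0.28 to 0.07 for Control-TMX and Control-OIL. Of these 12 correlations, 5 were above 0.1. In 4 of the 12, the library of the first-named group correlated best with its own number in the second group. With the replicate block, nuclear medians were -0.04, 0.02 and -0.06 in the order EHF IKO against Control-OIL, EHF IKO against Control-TMX and Control-TMX against Control-OIL, and mitochondrial ones 0.09, 0.26 and -0.20. The call lost under the block was that of Ppargc1a between the controls (log2 fold change 0.89, adjusted p = 0.0521).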
